A study of Caenorhabditis elegans with 2 samples.

Results

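Regions of CEH-22 ChIP-seq signal at nuclear tRNA genes of *Caenorhabditis elegans* were taken from the pooled relaxed list of 1 experiment. A region was counted when its summit lay within 200 bp of a nuclear gene annotated as a tRNA gene. This gave 230 of 19634 nuclear regions (1.17%), out of 19644 regions in all. The choice used position and presence in the pooled list, and did not use the strength of a region.

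The study measured CEH-22, an NK-2 class homeodomain transcription factor known from pharyngeal muscle, by chromatin immunoprecipitation and sequencing. Whole late embryos of mixed sex were used, and 2 biological replicates formed the only group, so the design holds no contrast of conditions. The strain was OP389, with the unc-119(tm4063) III allele and the transgene wgIs389, which both replicates carried. The transgene expressed CEH-22 with a C-terminal GFP-FLAG tag, the antibody is given as ceh-22, and chromatin was sheared by sonication. No source used here gives the promoter that drives the transgene. Control libraries were not analysed here, and because whole embryos were used a region cannot be assigned to a cell type. The labels call the replicates biological without saying whether they came from separate cultures.

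The replicate 1 and replicate 2 relaxed lists each held 30000 regions, and the thresholded list, made by a test of reproducibility between ranked lists (IDR), held 285. On ce11 these 285 were the pooled regions with the highest signal value. The signal value is a score from the authors' peak caller, on a scale that is not stated, so it was used to rank regions within a list, with rank 1 the strongest. Read depth is unknown. Intervals below are exact 95% Clopper-Pearson intervals. Where a count is 0, the share it allows is given instead as 3 counts of the total, which is slightly below the exact upper bound. Both cover counting error over regions or genes only.

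Nuclear tRNA genes are short and are transcribed by RNA polymerase III. Their promoter lies inside the gene, in an A box and a B box that TFIIIC binds, and TFIIIC places TFIIIB just upstream of the gene, where it recruits the polymerase. Many tRNA genes occur as identical copies, and strongly transcribed tRNA genes are known as places where ChIP experiments against unrelated proteins can give signal.

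The sequences below are those of genes next to regions in the thresholded list, chosen to show what a single-copy gene, a many-copy gene and an identical family look like at these regions. They are from the RefSeq assembly WBcel235 (ce11), written 5′ to 3′ on the strand of the tRNA gene. In the first 4, the capitals mark the A box and the B box letters found by matching on the gene's strand. R04A9.t1 is a glutamine tRNA gene, 1 of 15 identical copies (chrX:410391-410462, plus strand). C04A11.t1 is a leucine tRNA gene with 2 annotated exons (chrX:13665555-13665673, plus strand), C16B8.t2 a proline tRNA gene (chrX:3970096-3970167, plus strand) and C05G6.t1 a valine tRNA gene (chrIV:620482-620554, plus strand). The sequence of each of these last 3 genes was present once among the tRNA genes.
R04A9.t1: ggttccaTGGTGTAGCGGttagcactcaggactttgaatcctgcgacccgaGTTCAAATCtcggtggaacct
C04A11.t1: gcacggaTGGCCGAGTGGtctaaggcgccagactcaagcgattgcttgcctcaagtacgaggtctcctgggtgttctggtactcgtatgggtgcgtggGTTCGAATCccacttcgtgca
C16B8.t2: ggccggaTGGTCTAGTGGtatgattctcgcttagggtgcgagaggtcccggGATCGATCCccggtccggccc
C05G6.t1: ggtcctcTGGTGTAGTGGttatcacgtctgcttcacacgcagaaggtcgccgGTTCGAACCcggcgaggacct

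The A box pattern was found in 592 of 612 nuclear tRNA genes (96.7%) and the B box pattern GNTCNANNC in 603 (98.5%), so these letters belong to nearly every tRNA gene, with or without a region. Histidine tRNA genes carried 3 of the thresholded regions, at 3 places with the same gene sequence. The windows below reach 100 bp to each side of the summit, and the capitals mark the tRNA gene. They lie at chrIV:16400859-16401059 (plus strand, Y65A5A.t4), chrX:16634779-16634979 (minus strand, C06G1.t1) and chrII:3521434-3521634 (minus strand, W09G10.t1).
Y65A5A.t4: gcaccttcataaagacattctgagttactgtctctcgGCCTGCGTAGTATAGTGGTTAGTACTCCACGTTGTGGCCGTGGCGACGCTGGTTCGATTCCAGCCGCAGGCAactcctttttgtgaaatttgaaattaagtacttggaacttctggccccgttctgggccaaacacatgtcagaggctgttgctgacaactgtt
C06G1.t1: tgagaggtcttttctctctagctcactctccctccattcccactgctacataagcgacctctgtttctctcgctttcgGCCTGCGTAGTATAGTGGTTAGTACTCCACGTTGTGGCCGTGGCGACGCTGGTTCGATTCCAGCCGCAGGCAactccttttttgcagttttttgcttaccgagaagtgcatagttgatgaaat
W09G10.t1: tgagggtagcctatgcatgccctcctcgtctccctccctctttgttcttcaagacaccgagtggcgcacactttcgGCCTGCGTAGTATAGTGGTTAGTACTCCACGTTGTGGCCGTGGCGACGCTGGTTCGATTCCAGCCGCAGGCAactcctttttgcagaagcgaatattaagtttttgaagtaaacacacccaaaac

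The tRNA gene regions stood high in the pooled list. Their median rank was 4618.5, at 23.5% of the list, with quartiles at 845.25 and 10222.5, against a median rank of 9880.5, at 50.3% of the list, for the other 19404 nuclear regions. The strongest 5% of the list held 67 of the 230 tRNA gene regions (29.1%, interval 23.3 to 35.5), against 4.67% of the other nuclear regions (4.38 to 4.98). The strongest 10% held 87 of them (37.8%), against 9.63% of the others. The remaining members were spread over the whole list, down to rank 19270, and 167 of the 230 (72.6%) stood in its stronger 50%, against 49.7% of the others. Regions at snoRNA genes, another class of short non-coding genes, stood higher still, with a median rank of 2183 over 125 regions.

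**Figure D1:**
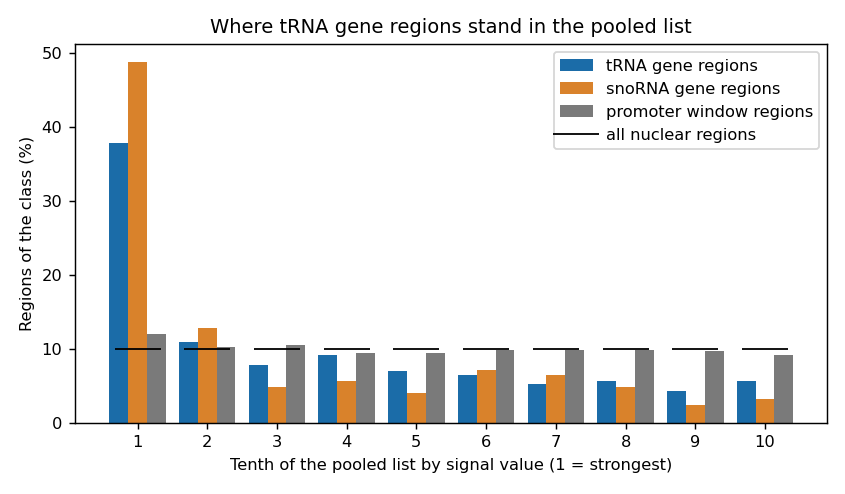
Share of each class of regions (%) in each 10% of the pooled list, from the strongest signal values (1) to the weakest (10), for tRNA gene regions (n = 230), snoRNA gene regions (n = 125) and promoter window regions without a tRNA gene (n = 4660); black lines mark all nuclear regions (n = 19634). The strongest 10% holds 37.8% of the tRNA gene regions and 9.96% of all nuclear regions.

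The thresholded list held 15 of the 230 tRNA gene regions (6.52%, interval 3.70 to 10.5), where 1.41% of all nuclear regions were in it. Of the other nuclear regions it held 262 of 19404 (1.35%, 1.19 to 1.52). Of the snoRNA gene regions it held 25 of 125 (20%, 13.4 to 28.1), and of regions in protein-coding promoter windows without a tRNA gene 105 of 4660 (2.25%, 1.85 to 2.72). A promoter window ran from 1000 bp upstream to 200 bp downstream of a gene's 5′ end. No tRNA gene region also lay within 200 bp of a snoRNA gene (0 of 230, which allows a share of up to 1.3%), where 0.637% of all nuclear regions did. Near a snRNA gene lay 1 (0.435%), where 0.153% of all nuclear regions did. With shares this small over the whole list, these counts say little about the members.

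The strongest member was at R04A9.t1 (chrX:410166-410509), in an intron of ZK1193.2. Its signal value was 60.6 in the pooled list, 27.4 in replicate 1 and 35.7 in replicate 2, which placed it at ranks 39, 40 and 55 of those lists. The region at C04A11.t1 (chrX:13665395-13665738), which lay in no protein-coding gene, had signal values of 57.3, 31.2 and 23.9 in the same order and ranks of 49, 25 and 175. Both regions were among the strongest 285 of each replicate, and both ranked higher in replicate 1 than in replicate 2.

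The histidine region at Y65A5A.t4 (chrIV:16400787-16401130) had signal values of 55.6 in the pooled list, 13.9 in replicate 1 and 40.4 in replicate 2, and ranks of 52, 352 and 34. At C06G1.t1 (chrX:16634707-16635050), in an intron of C06G1.1, they were 46.9, 30.4 and 20, with ranks of 93, 28 and 380. At W09G10.t1 (chrII:3521362-3521705), in an intron of the collagen gene col-72, they were 43.6, 16.7 and 26, with ranks of 118, 211 and 138. The same gene sequence therefore ranked higher in replicate 2 at Y65A5A.t4 and W09G10.t1, and higher in replicate 1 at C06G1.t1.

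The alanine region at F15G9.t1 lay in an intron of him-4, the hemicentin gene, and ranked 122 in the pooled list, 117 in replicate 1 and 158 in replicate 2. The cysteine region at C37A2.t1 lay in an intron of cye-1, the cyclin E gene, and ranked 128, 518 and 117 in the same order of lists. The asparagine region at F41D9.t3 lay in an intron of sulp-3, a sulfate permease family gene, and ranked 148, 418 and 105 likewise. All 3 were at a tRNA gene with identical copies elsewhere, 8, 12 and 18 copies in all.

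The arginine regions at F41D9.t1 and F56F3.t1 ranked 160 and 168 in the pooled list, 198 and 228 in replicate 1, and 309 and 362 in replicate 2. These genes have different anticodons, TCT at F41D9.t1 and TCG at F56F3.t1. The proline region at C16B8.t2 ranked 218 in the pooled list, 183 in replicate 1 and 1187 in replicate 2. The glutamate region at C28G1.t1, with its summit 110 bp upstream of the gene and in the promoter windows of C28G1.2 and of the exocyst gene sec-15, ranked 265, 194 and 198.

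Replicate 1 placed 3 thresholded members far lower than replicate 2 did. The isoleucine region at F33G12.t1, in an intron of F33G12.3, ranked 223 in the pooled list, 5825 in replicate 1 and 242 in replicate 2. The valine region at Y7A9D.t3 ranked 242, 4326 and 153, and the valine region at C05G6.t1, in an intron of C18H7.1, ranked 246, 2260 and 140. Each was among the strongest 285 of replicate 2 only.

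**Figure D2:**
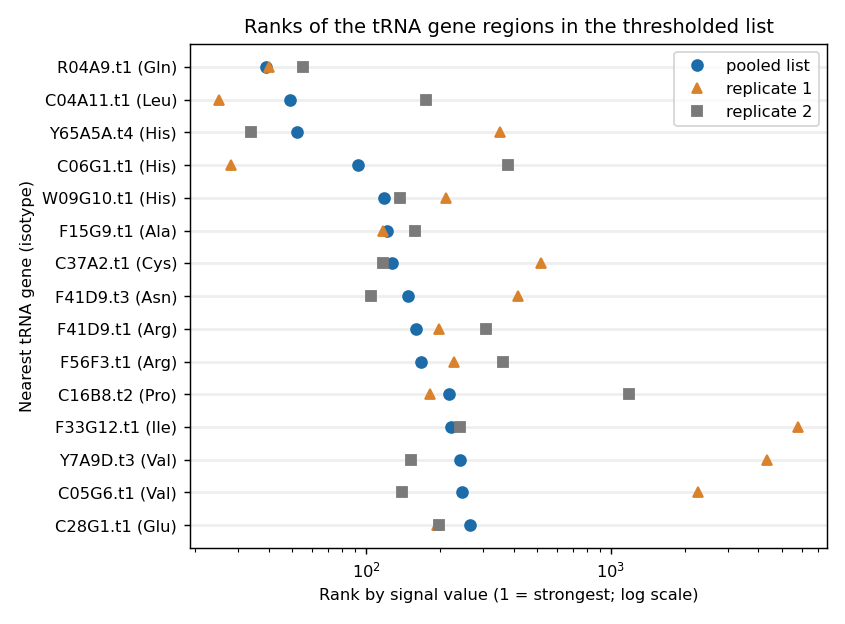
Rank by signal value (log scale, 1 = strongest) of the 15 tRNA gene regions in the thresholded list, in the pooled list (circles), replicate 1 (triangles) and replicate 2 (squares), ordered by pooled rank. R04A9.t1 ranks 39, 40 and 55, while F33G12.t1, Y7A9D.t3 and C05G6.t1 rank 5825, 4326 and 2260 in replicate 1.

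The last member inside the threshold was C28G1.t1, with a signal value of 32.8, and the first outside it was the isoleucine gene F57F5.t1, with 32.0 at rank 291. The next were the glutamine gene Y4C6B.t1 at rank 309, the methionine gene C02F12.t1 at 313, the glycine gene M02F4.t1 at 325, and the alanine gene K06A4.t1 at 335, in an intron of the sugar transporter gene swt-5. Threshold membership therefore separates regions of nearly equal signal at this point of the list. At the distance limit, the farthest member was at Y39A1A.t1, 197 bp from the gene and at rank 1146, and the nearest region left out was at T04D3.t3, 201 bp away and at rank 5024.

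Presence in the replicate lists was judged by a replicate summit within 200 bp of the pooled summit. The same replicate region could match 2 neighbouring members. At F29C4.t1 both members matched rank 432 of replicate 2. Members are therefore not fully independent in the shares and intervals below. Replicate 1 had such a region for 183 of the 230 members (79.6%, interval 73.8 to 84.6), where the share over all nuclear regions was 50.2%, and replicate 2 for 185 (80.4%, 74.7 to 85.4), where it was 81.9%. Both replicates had one for 142 members (61.7%, 55.1 to 68.0), where it was 35.4% over all nuclear regions and 35.1% over the others. The difference from the rest of the list thus lay in replicate 1, since in replicate 2 the members' share was close to that of all regions. A region was found in replicate 1 alone for 41 members (17.8%), in replicate 2 alone for 43 (18.7%), and in neither for 4 (1.74%). The first 2 of these counts are nearly equal. Over all nuclear regions the totals, which include regions in both lists, were 50.2% in replicate 1 and 81.9% in replicate 2. A region in replicate 2 alone was therefore more common there than one in replicate 1 alone. The share in neither list was not computed over all nuclear regions.

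The strongest 285 regions of replicate 1 included 14 members (6.09%, background 1.42%) and those of replicate 2 included 16 (6.96%, background 1.45%). Members among the strongest of both numbered 5 (2.17%, background 0.52%), at R04A9.t1, C04A11.t1, W09G10.t1, F15G9.t1 and C28G1.t1. Over the 142 members found in both replicates, Spearman's rho between the ranks was 0.35. It was 0.19 over 6813 other regions and 0.48 over 82 snoRNA gene regions, and these points share libraries and are not independent. All 15 thresholded members had a region in both replicate lists. That list was made by a test of reproducibility, so this is not separate support, and the share over all thresholded regions was not computed.

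**Figure D3:**
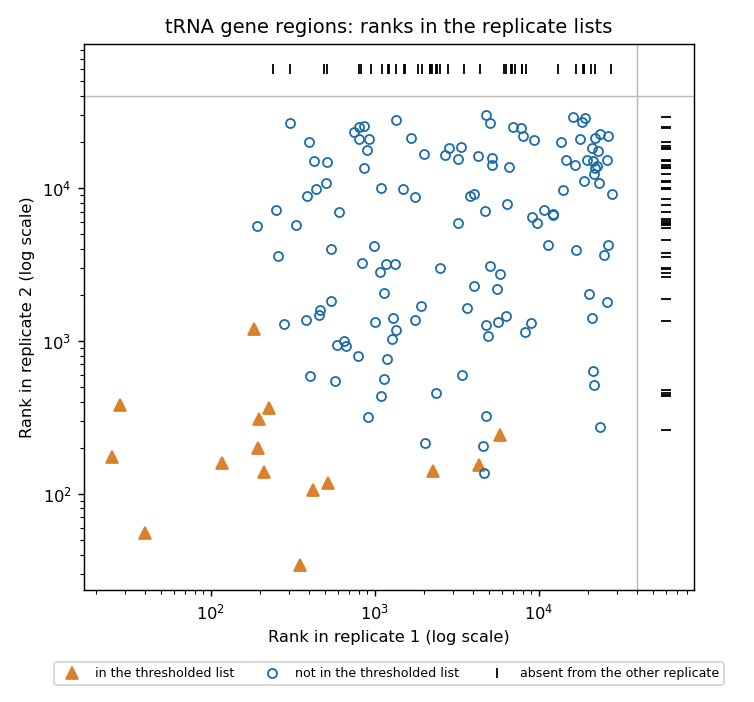
Rank of each tRNA gene region in replicate 1 against replicate 2 (both log scale, 1 = strongest), with triangles for members in the thresholded list and open circles for the others; ticks at the edges mark members absent from the other replicate. The 142 members in both lists scatter widely (Spearman's rho 0.35), and the 15 thresholded members lie toward the lower edge.

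The summits lay on both sides of the tRNA genes and within them. Measured along the strand of the nearest gene, 94 summits were upstream of it (40.9%, interval 34.5 to 47.5), 63 inside it (27.4%, 21.7 to 33.6) and 73 downstream (31.7%, 25.8 to 38.2). The intervals of the upstream and downstream shares overlap. From 80 bp before to 40 bp after the gene's centre there were 114 summits (49.6%, interval 42.9 to 56.2), a span chosen after the values were seen. The median summit lay 24.5 bp into the gene, counted from its 5′ end. Members could lie up to 200 bp to each side of a gene of median length 72 bp. The 3 shares therefore come from spans of unequal length, and a median within the gene follows in part from the limit. Because most regions had the same width of 344 bp, widths were not compared.

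Members with the summit inside the gene were the strongest by median, at rank 1788, against 5312.5 for those upstream and 6790 for those downstream. The thresholded list held 6 of 63 inside (9.52%, 3.58 to 19.6), 6 of 94 upstream (6.38%, 2.38 to 13.4) and 3 of 73 downstream (4.11%, 0.856 to 11.5), and these intervals overlap. Regions in both replicate lists made up 74.6% of those inside, 59.6% of those upstream and 53.4% of those downstream. Of the named members, C05G6.t1 had its summit 47 bp into the gene and F56F3.t1 4 bp before it.

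**Figure D4:**
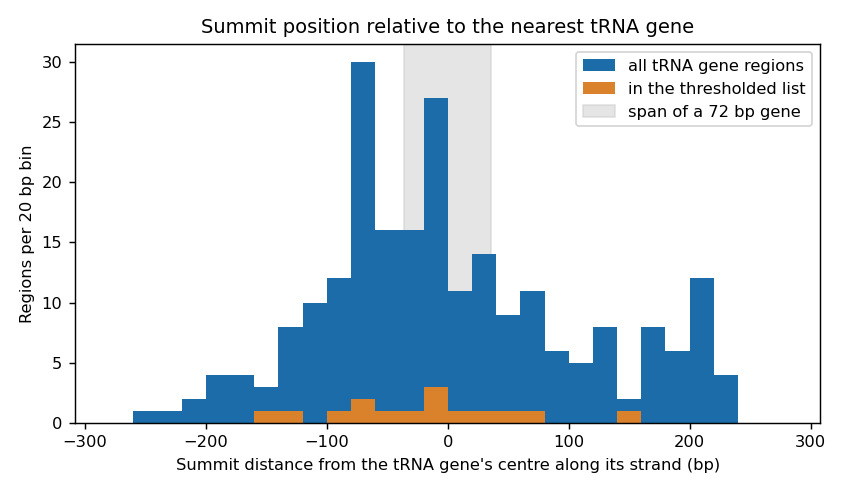
Number of tRNA gene regions per 20 bp bin of summit distance (bp) from the centre of the nearest tRNA gene, along its strand, with members in the thresholded list in orange and the span of a 72 bp gene (the median length) shaded. Summits cluster between −80 and 40 bp, which holds 114 of 230 members.

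By gene, 234 of 612 nuclear tRNA genes (38.2%, interval 34.4 to 42.2) lay within 200 bp of a pooled summit. In replicate 1 the number was 281 (45.9%) and in replicate 2 it was 223 (36.4%), with 156 genes in both and 256 in no list. A thresholded summit lay near 17 genes, since some of the 15 regions served more than 1 gene, and 17 of the 230 members had 2 or more tRNA genes within the limit. A gene with no region in these lists is not shown to lack signal.

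Among isotypes of 5 or more genes, those for leucine had the highest share of genes with a pooled region, 23 of 39 (59.0%, interval 42.1 to 74.4), followed by threonine with 16 of 34 (47.1%) and lysine with 21 of 46 (45.7%). The lowest shares were aspartate with 7 of 27 (25.9%, 11.1 to 46.3), histidine with 6 of 20 (30%) and cysteine with 4 of 13 (30.8%). Histidine combined a low share with a median rank of 553 over its 6 regions, 3 of them thresholded. The interval of every isotype overlapped that of all tRNA genes, and tryptophan had the weakest regions, with a best rank of 9441 over 4. The thresholded members came from 11 isotypes, with arginine and valine at 2 members each, histidine at 3, and the rest at 1.

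**Figure D5:**
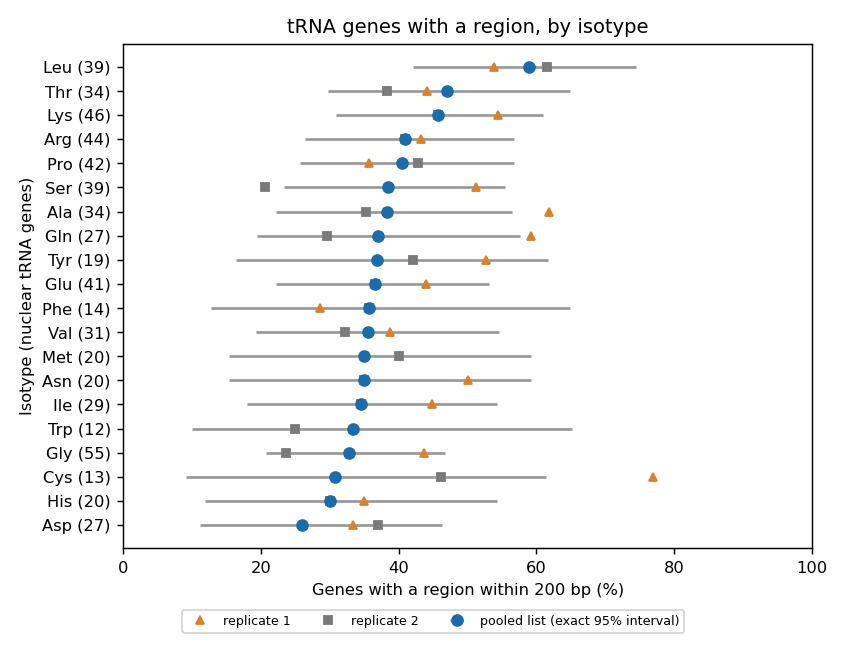
Share of nuclear tRNA genes (%) with a region within 200 bp, by isotype (number of genes in brackets), in the pooled list (circles, bars are exact 95% intervals), replicate 1 (triangles) and replicate 2 (squares); a marker can hide another at the same value. Leucine is highest in the pooled list, at 59.0%, and aspartate lowest, at 25.9%.

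The histidine GTG family shows how unevenly identical copies were marked. Of 11 copies with the same sequence, 4 had a pooled region: Y65A5A.t4, C06G1.t1 and W09G10.t1, all thresholded, and Y7A9D.t1 at rank 1539. The other 7 had no region in any list. They are C49F5.t1 and 6 F28H6 genes on chromosome X, which lie between positions 14135045 and 14137010, and 5 of those 6 had under 50% of unique 31-base words in the gene with 200 bp to each side.

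Identical copies limit how reads can be placed. Of the 612 genes, 469 (76.6%) share their sequence with another copy, and how reads that fit several places were treated is not given in the sources used here. As for the sequence itself, the median gene had no unique 31-base word in itself and 87.4% unique words once 200 bp of flank was added. Of 17 genes with under 50% unique words none had a pooled region (which allows a share of up to 17.6%), while 4 had one in replicate 1 and 2 in replicate 2. Of the other 595 genes 234 had one (39.3%). The part of read placement in these values was not tested.

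Copies were counted by identity of the whole annotated gene sequence, so a gene counted as single-copy can still share most of its sequence with others. Single-copy genes had a pooled region at 44 of 143 (30.8%, interval 23.3 to 39.0), genes of 2 to 5 copies at 38 of 82 (46.3%), genes of 6 to 12 copies at 54 of 157 (34.4%) and genes of 13 or more copies at 98 of 230 (42.6%). The share did not follow copy number in one direction. Among thresholded members, 11 of 15 were at a gene with an identical copy elsewhere, and 4 were at genes counted as single-copy: C04A11.t1, C16B8.t2, F33G12.t1 and C05G6.t1. Of these, F33G12.t1 was not unique by 31-base words, since 0% of the words within the gene occurred once in the genome.

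Chromosome X holds 276 of the 612 nuclear tRNA genes (45.1%) and 90 of the 230 members (39.1%), against 18.5% of the other nuclear regions. A pooled region was found at 93 of the 276 genes on X (33.7%, interval 28.1 to 39.6) and at 141 of 336 autosomal genes (42.0%, 36.6 to 47.4). The median rank of the members was 2426 on X and 5631 over the autosomes, where it ran between 2058 on II and 6378 on IV. Of the members on X, 8 of 90 (8.89%, 3.92 to 16.8) were thresholded, against 7 of 140 on the autosomes (5%, 2.03 to 10). The intervals of X and the autosomes overlapped in both shares. By autosome, chromosome III had a region at 30 of 64 genes (46.9%), II at 26 of 57 (45.6%), I at 27 of 66 (40.9%), IV at 28 of 71 (39.4%) and V at 30 of 78 (38.5%). Chromosome V had no thresholded member among its 29 regions, while the others had 1 to 3.

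The members lay more often outside protein-coding genes, and less often in exons, than the rest of the list. Members were chosen by nearness to tRNA genes, and 322 of the 612 nuclear tRNA genes lie outside protein-coding genes. The contrast in position is therefore not a result separate from that choice. Their summits lay outside protein-coding genes at 122 regions (53.0%, against 33.4% of other regions), in introns at 87 (37.8%, against 30.6%), in coding exons at 19 (8.26%, against 30.9%) and in untranslated exons at 2 (0.870%, against 5.16%). Where the summit lay in an intron, 8 of 87 members were thresholded (9.20%), against 1.18% of other intronic regions, and where it lay outside protein-coding genes, 7 of 122 (5.74%), against 2.77%. None of the 19 coding exon members was thresholded, which allows a share of up to 15.8%. The share of tRNA genes with a region was 36.9% inside a protein-coding gene (107 of 290) and 39.4% outside (127 of 322). Inside such a gene it was 39.8% on the same strand as the host (66 of 166) and 33.3% on the other strand (41 of 123).

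The windows of 100 bp to each side of the summit were richer in G and C than those of the rest. Their mean GC content was 43.9% ± 6.51 (SD, n = 230), against 39.9% ± 6.89 (SD, n = 19404). At 182 members the summit lay within 100 bp of a tRNA gene, so the gene reached into the window. The part of the tRNA gene sequence in the GC content was not tested. GC content moved with the thresholded share: at 50% GC or more, 7 of 37 members were thresholded (18.9%, interval 7.96 to 35.2), against 7.80% of other regions (6.5 to 9.26). At 40% to under 50% it was 8 of 132 (6.06%, 2.65 to 11.6), against 1.64% (1.36 to 1.95), and under 40% it was 0 of 61, which allows a share of up to 4.92%, against 0.185%. The intervals of members and other regions were apart in the middle band and overlapped in the band of highest GC content.

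The letters of NK-2 class binding sites, TCAAGTG or TTAAGTG on either strand, were in the windows of 12 of the 230 members (5.22%, interval 2.72 to 8.94), where 6.06% of all nuclear regions had them. Each of the 2 words was found in 6 windows (2.61%), where TCAAGTG was in 4.45% and TTAAGTG in 1.70% of all nuclear regions. None of the 12 was in the thresholded list, which allows a share of up to 25%. That list held 1.41% of all nuclear regions, and its share over all regions with the letters was not computed. The strongest were at M01E5.t1, rank 376, and C42D8.t1, rank 592. In replicates 1 and 2 M01E5.t1 ranked 23483 and 274, and C42D8.t1 506 and 10806. M01E5.t1 was also the member near a snRNA gene. Sites from 2 of the 12 are printed because they show the words at members: C42D8.t1, the second strongest, and T14B4.t1, whose site reads both ways. The capitals mark the letters, with up to 10 bases to each side, at chrX:5085566-5085588 (minus strand) and chrII:6721722-6721751 (plus strand).
C42D8.t1: ttttgattgtTTAAGTGagaaaa
T14B4.t1: caactggcagCACTTAAGTGtctctacgag

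By contrast, the B box letters GGTTCGA were in 101 of the 230 windows (43.9%, interval 37.4 to 50.6) and in 1.66% of the others. These letters belong to the tRNA genes themselves, which reach into the windows. For the NK-2 letters the members' interval included the share of the other nuclear regions, 6.07%. A window without the letters says only that they are not in that window.

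Genes listed as machinery of the polymerase that reads tRNA genes, and genes for the enzymes that charge the tRNAs, were described by the same pooled list. The machinery list also held genes other than polymerase subunits, such as tbp-1, tftc-3 and snpc-4. Of 20 annotated genes of the RNA polymerase III machinery list, 8 had a pooled summit in the promoter window (40%), where 24.6% of protein-coding genes had one. No interval was computed for the shares of these small gene lists, so they are not shown to differ from 24.6%. None of the 20 had a thresholded summit there, where 0.716% of protein-coding genes did. The strongest were rpb-10, a small polymerase subunit gene, at rank 1321, rpc-2, the second largest subunit of RNA polymerase III, at 4431, and tftc-3, a TFIIIC subunit, at 5468. A region in both replicate lists was found for 1 of the 8, and rpb-10 and tftc-3 had none in replicate 1. Of 21 annotated genes listed as cytosolic aminoacyl-tRNA synthetase genes, 5 had a pooled summit (23.8%) and none a thresholded one. Whether each listed enzyme acts in the cytosol was not checked. Of the 2 valyl synthetase genes listed, vars-2 was not found in the annotation. The strongest of these were the methionyl synthetase gene mars-1 at rank 2186, the threonyl synthetase gene tars-1 at 8006 and the valyl synthetase gene vars-1 at 11090. A region in both replicate lists was found for 2 of these 5, and mars-1 and vars-1 had none in replicate 1. Among promoter window regions without a tRNA gene, 38.4% were in both replicate lists.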

How the data were processed

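The deposited files are region lists on ce11 from CEH-22 ChIP-seq of 2 replicates. Per the submitters' file listing, each relaxed list came from alignments and a control, and the thresholded list from an IDR test. The authors gave each region a score (the signal value), on a scale not stated. For the peak caller and the aligner, names and versions were not given in the sources used here. Lists on ce10 were not used.

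Coordinates are 1-based. Ensembl release 115 gave genes, and RefSeq, of the same assembly, gave sequence and isotypes for all 612 tRNA genes. Anticodons were read in an arm of 5 stem and 7 loop bases (551 genes). Python 3.11.15, NumPy 2.4.6, pandas 2.3.3 and SciPy 1.17.1 were used, and the counting was tested on simulated data. With 1 group and 230 regions, shares were described with exact intervals and no test. Named genes were those of the thresholded and the 20 strongest members, members at both limits, members among the strongest of both replicates, the 3 highest and 3 lowest isotypes, and the 3 strongest genes of each list; other genes named were chosen after their values were seen. Members and lists were chosen with earlier results of these data known. Alternatives were other distances, matching rules and windows, each replicate alone, and single-copy genes.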

Additional observations from a re-analysis of the deposited data

How the results depend on the processing

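Of 49 alternatives, 36 left the value within its interval or count range, and 13 moved it. With only summits inside a tRNA gene, 63 regions remained, the median rank was 9.10% of the list, 10.3% of genes had a region, 54.0% lay in a protein-coding gene span and 74.6% were in both replicates. With a limit of 100 bp, 30.7% of genes had a region and 34.6% of summits were inside, and with 500 bp 47.2% of genes had a region. Matching replicates within 100 bp gave 44.4% in both. The stronger 50% of the thresholded list held 3.04% of members. Single-copy genes, an alternative chosen after seeing the data, gave a median rank at 31.5% of the list.

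Using 1 replicate's own list gave 230 to 280 regions, a median rank at 20% to 29.7%, 36.4% to 45.9% of genes, 5.36% to 6.96% among the strongest 285, 21.3% to 26.4% with the summit inside, 48.3% to 50% in a gene span and 5% to 5.22% with NK-2 letters. No paired analysis was possible because there is 1 group. Unknown read depth and identical gene copies limit what the absence of a region shows.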

Other observations

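Mitochondrial tRNA genes were not counted with the nuclear ones. Of 10 mitochondrial regions in the pooled list, 3 lay, by their summit, no more than 200 bp from a mitochondrial tRNA gene, of which there are 22. They ranked 30, 504 and 2190 in the pooled list, with signal values of 65.3, 26.4 and 18.0. Of these 3, only the region at rank 30 was in the thresholded list. Its signal value was above the 60.6 of the strongest nuclear tRNA gene region, R04A9.t1. The thresholded list of 285 held 277 nuclear regions, so most of the 10 mitochondrial regions were in it. The mitochondrial regions with no tRNA gene this near were all in it.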
